A study of Mus musculus with 15 samples.

Results

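Lif, the cytokine leukaemia inhibitory factor, and 6 genes of the receptor pathway it uses were followed in mouse dental mesenchymal cells (mDMCs) from the tissue, through isolation, to 48 h of culture. The 7 genes were the ligands Lif and Clcf1, the receptors Lifr, Osmr and Il6st, the transcription factor Stat3 and the inhibitor Socs3. They were chosen from a list of pathway genes that had a row in the deposited table, and the list was drawn up with the time course of these genes already known. They account for 7 of 12089 transcripts in that table. Because the choice rested on these same values, the levels of the 7 genes are given as a description with no test.

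Bulk RNA was sequenced from mandibular first molar germs of E14.5 ICR mouse embryos. The mesenchyme was separated from the epithelium with dispase, dissociated with trypsin and plated in DMEM with fetal bovine serum. There were 3 libraries of freshly isolated cells (0 h), 2 at 12 h, 3 at 24 h, 3 at 36 h, 3 at 48 h and 1 of undissociated mesenchymal tissue, 15 in all. All groups share strain, stage and tooth, and the labels name no agent beyond culture itself. The labels do not say whether libraries of a time point came from separate cultures, so p-values measure the spread between these libraries, which may be technical. Values are normalised scores that the authors had brought to a shared scale (median 721 in every library), and the sequencing depth is unknown. A score is not known to be divided by transcript length, so a gene is compared here only with itself. In bulk RNA, fewer cells of a type and less RNA per cell cannot be told apart.

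Cytokines of the interleukin-6 family signal through gp130, a membrane protein encoded by Il6st. LIF binds the LIF receptor, which then pairs with gp130, whereas oncostatin M uses a receptor made of OSMR and gp130. Kinases of the JAK family bound to these receptors phosphorylate STAT3, which enters the nucleus and switches on its targets, among them Socs3, whose product binds gp130 and the kinases and shuts the signal off. The pathway is best known for keeping mouse embryonic stem cells undifferentiated, and it also acts in bone-forming mesenchyme.

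The promoters of Lif and Socs3 are shown because these genes had the largest differences in opposite directions among the 7 and because each held 1 of the motifs searched. They are the 250 bases before the start site in RefSeq (mouse build GRCm38.p6), with the motif in capitals. The Lif promoter lies at chr11:4257318-4257567 on the plus strand, and the Socs3 promoter at chr11:117969367-117969616 on the minus strand.
Lif: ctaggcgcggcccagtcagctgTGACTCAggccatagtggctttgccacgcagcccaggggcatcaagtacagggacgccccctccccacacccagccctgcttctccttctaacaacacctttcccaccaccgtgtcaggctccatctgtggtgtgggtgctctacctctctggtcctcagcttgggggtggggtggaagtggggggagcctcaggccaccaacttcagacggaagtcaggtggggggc
Socs3: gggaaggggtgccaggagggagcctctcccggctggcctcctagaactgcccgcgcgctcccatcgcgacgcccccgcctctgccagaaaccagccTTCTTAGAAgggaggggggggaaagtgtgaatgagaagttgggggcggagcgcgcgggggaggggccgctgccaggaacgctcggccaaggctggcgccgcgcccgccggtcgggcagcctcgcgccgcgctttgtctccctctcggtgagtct
The Lif promoter held TGACTCA, the core bound by AP-1 (Fos and Jun proteins), with its first base 228 bases before the start site. The Socs3 promoter held TTCTTAGAA, which has the letters TTCNNNGAA of a STAT site, with its first base 154 bases before the start site. Both motifs were searched on both strands, and they do not overlap each other. Of 32851 promoters of this length, 7.02% held TTCNNNGAA and 4.46% held TGACTCA. RefSeq promoters were matched for 6 of the 7 genes, and the windows of Lifr, Osmr, Il6st and Stat3 held neither. The start sites of the Lifr windows lay 24781 and 13811 bases from that of the transcript measured here, and that of Osmr 656 bases. The bases just before the measured Lifr transcript were thus not searched. A match is a description of the sequence only.

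Lif went from scores near 0 to the middle of the library within 36 h. Its transcript (ENSMUST00000066283, 4 exons) lies on chromosome 11 at 4257557-4272514, plus strand (build GRCm38, as for all transcripts here). In freshly isolated cells its scores were 1, 0 and 4, and in the tissue 5. The 12 h libraries had 116 and 91. Those of 24 h had 516, 373 and 384, those of 36 h 834, 718 and 839, and those of 48 h 732, 461 and 839. Every one of the 11 cultured libraries was above every fresh library and the tissue. The levels at 0 h, 12 h and 24 h ascended without overlap, while the ranges at 24 h and 48 h and those at 48 h and 36 h overlapped. On the log2(score + 1) scale Lif was higher by 5.59 ± 0.49 (SE) at 12 h and 8.25 ± 0.43 at 48 h than at 0 h. These sizes depend on the pseudocount, since the fresh libraries are near 0: the 48 h difference was 5.26 with a pseudocount of 16 and 9.74 with 0.1. Within a library, Lif stood between percentiles 0.1 and 0.7 of all transcripts at 0 h, and between 49.9 and 54.2 at 36 h.

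**Figure D1:**
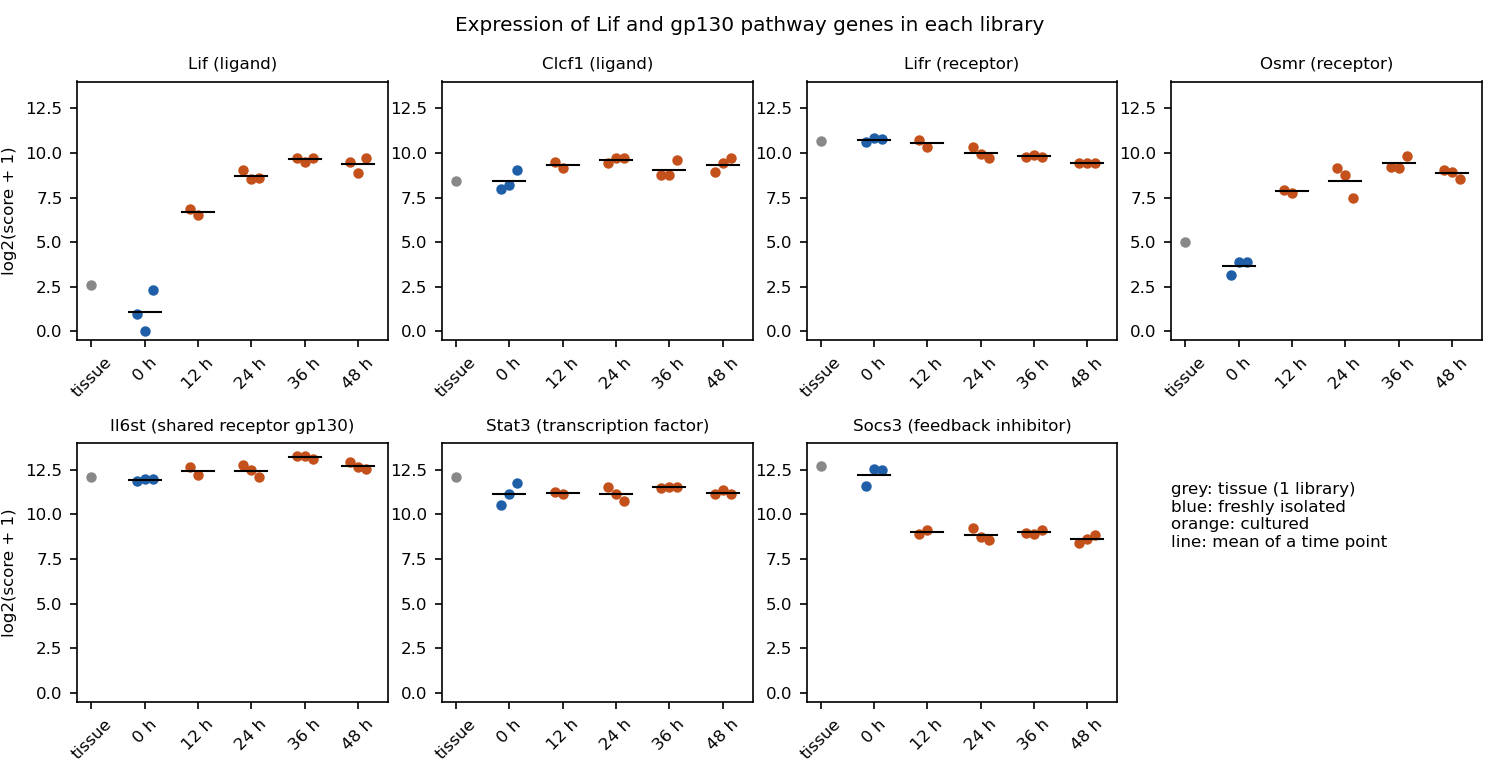
Score of each gene on the log2(score + 1) scale (vertical axis) in the tissue library and in each mDMC library by time (horizontal axis). Points are libraries and lines are means of a time point. Lif and Osmr lie far higher in all 11 cultured libraries than at 0 h, Socs3 far lower, and the cultured Stat3 values lie within the range at 0 h.

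Clcf1 encodes cardiotrophin-like cytokine factor 1, a ligand of the same family that acts through a complex holding gp130 and the LIF receptor. Its transcript (ENSMUST00000046506, 3 exons, chromosome 19 at 4214238-4223490) overlaps a readthrough locus, and no source used here states whether reads were counted by strand, so its level is less certain. Fresh cells scored 249, 296 and 523, and the 12 h libraries 721 and 568. The 24 h libraries scored 679, 834 and 839, the 36 h libraries 440, 440 and 788 and the 48 h libraries 483, 686 and 828. The mean was higher at every culture time than at 0 h, but the 36 h and 48 h ranges overlapped the fresh one at its highest library. The fitted difference was 0.92 ± 0.33 at 12 h and 0.94 ± 0.29 at 48 h. The tissue, at 342, lay inside the range at 0 h.

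Osmr, the chain that pairs with gp130 to bind oncostatin M, was higher in culture, as Lif was. Its transcript (ENSMUST00000022746, 18 exons) lies on chromosome 15 at 6813577-6874969, minus strand. Osmr scored 8, 14 and 14 in fresh cells and 242 and 215 in the 12 h libraries. The values were 560, 437 and 174 at 24 h, 601, 577 and 901 at 36 h, and 533, 488 and 375 in the last group. All 11 cultured libraries lay above the fresh ones and above the tissue, which had 31. The difference from 0 h was 4.18 ± 0.41 at 12 h and 5.19 ± 0.36 at 48 h, and 3.13 and 4.10 with a pseudocount of 16. The third 24 h library, at 174, fell below both 12 h libraries, so the 12 h and 24 h ranges overlapped. The 36 h values lay above all 48 h values.

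Lifr, the receptor chain for LIF itself, was lower late in culture. Its transcript (ENSMUST00000171588, 19 exons) lies on chromosome 15 at 7154353-7197489, plus strand, 279.4 kb from that of Osmr. Fresh cells scored 1547, 1828 and 1762 and the 12 h libraries 1667 and 1304, with overlapping ranges. By 24 h the scores were 1282, 979 and 835, by 36 h 888, 931 and 876, and by 48 h 684, 684 and 704. Every library from 24 h on lay below all fresh and 12 h libraries. The change from 0 h was -0.21 ± 0.15 at 12 h and -1.31 ± 0.14 at 48 h, a level 2.47 times lower. Lifr and Osmr thus differed from fresh cells in opposite directions at 48 h.

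Il6st (ENSMUST00000183663, 17 exons, chromosome 13 at 112464070-112510086), the shared signalling chain gp130, was moderately higher in culture. It scored 3744, 3982 and 4034 in fresh cells, 6476 and 4794 in the 12 h libraries and 7036, 5823 and 4292 in those of 24 h. The 36 h libraries held 9774, 9774 and 8707, and the last time point 7699, 6549 and 6058. All 11 cultured libraries were above the fresh ones, by 0.51 ± 0.18 at 12 h and 0.78 ± 0.16 at 48 h. The 36 h libraries lay above all others, with no overlap with 48 h. The tissue stood at 4419, inside the spread of the cultured libraries.

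Stat3 mRNA did not follow the cytokine or its receptors. Its transcript (ENSMUST00000103114, 24 exons) lies on chromosome 11 at 100885098-100939404, minus strand. Fresh cells scored 1497, 2280 and 3414, and the 12 h libraries 2463 and 2280. Later scores were 2994, 2261 and 1743 at 24 h, 2847, 2911 and 3012 at 36 h, and 2297, 2599 and 2297 in the 48 h libraries. The fresh libraries alone spanned the range of all cultured ones. The difference was 0.06 ± 0.27 at 12 h and 0.08 ± 0.24 at 48 h, smaller than its error. The tissue, at 4327, was above every mDMC library. STAT3 is controlled chiefly by phosphorylation, which mRNA levels do not measure.

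Socs3, the feedback inhibitor and a standard read-out of STAT3 activity, was low from 12 h on. Its transcript (ENSMUST00000054002, 2 exons) lies on chromosome 11 at 117966079-117969186, minus strand. Fresh cells scored 3076, 6074 and 5711, and the tissue 6792. The 12 h libraries had 476 and 552, and those of 24 h 614, 420 and 374. The values were 498, 486 and 547 at 36 h, and 339, 392 and 461 in the 48 h libraries. All 11 cultured libraries lay below all fresh ones, and the cultured time points overlapped their neighbours in order of level. The difference from 0 h was -3.21 ± 0.27 on the log2 scale at 12 h, a level 9.24 times lower, and -3.59 ± 0.24 at 48 h, a level 12.0 times lower.

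Summed markers of endothelium, leukocytes and red cells were lower in culture too. The summed score of 8 endothelial markers was 9591 to 11432 at 0 h, 923 to 996 at 12 h, 643 to 984 at 48 h and 13299 in the tissue. That of the 4 leukocyte markers with values, of 8 listed, was 907 to 1262 at 0 h, 302 to 371 at 48 h and 1858 in the tissue. That of 7 red cell markers, of 8, was 97833 to 150838 at 0 h, 51 to 168 at 48 h and 135856 in the tissue, and the red cell gene Slc4a1 was listed at 0 in all 11 cultured libraries. Their part in the change of Socs3 was not tested. The 10 dental mesenchyme markers summed to 82908 to 98231 at 0 h and 47979 to 57031 at 48 h, a sum to which Prrx1 gave the most (40667 to 50479 and 31853 to 36409). None of the 10 was at 0. Pdgfra went from 16448 in each fresh library to between 2485 and 2608 at 48 h. Pax9 went from between 3850 and 5959 to between 619 and 1056, and Lhx6 from between 3537 and 4933 to between 1268 and 1437. Msx1, Lhx8, Barx1 and Twist1 were also below their fresh ranges at 48 h, but Dlx1 and Dlx2 were not. Dlx1 had 3770 to 4750 at 0 h, 4923 to 5711 at 12 h and 2294 to 4892 at 48 h. Dlx2 had 324 to 751, 850 to 1255 and 389 to 521 at these times. The part of these differences in the results was not tested. The first fresh library stood apart: 7 epithelial markers, of 8, summed to 13358 there against 1450 and 1771 in the other 2. In culture that sum was 2289 and 2683 at 12 h, above those 2 fresh libraries, 1004 to 2097 at 24 h, 87 to 600 at 36 h and 357 to 1205 at 48 h, and 4902 in the tissue. The first fresh library also had the lowest Socs3 score of the 3. Without it, the 48 h change of Socs3 was -3.90.

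**Figure D2:**
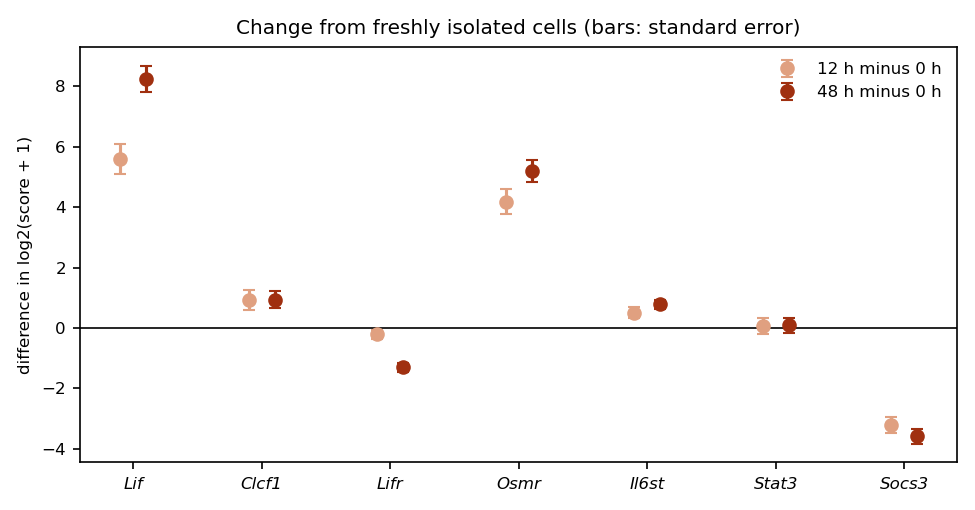
Fitted difference from freshly isolated cells on the log2(score + 1) scale (vertical axis) for each of the 7 genes at 12 h and 48 h; bars are standard errors. Lif and Osmr lie above 4 at both times, Socs3 below -3, Lifr near 0 at 12 h and at -1.31 at 48 h, and Stat3 at 0.06 and 0.08.

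All 7 genes passed the filter on low values, Lif and Osmr only through their cultured libraries. At 12 h, 2 of the 7 (Lif and Osmr) were over 2-fold higher than at 0 h, while 12.5% of all 12079 transcripts in the fit were, and 1 (Socs3) was over 2-fold lower, against 12.4%. At 48 h, 2 were higher (Lif and Osmr), against 16.4% of all, and 2 were lower (Socs3 and Lifr), against 16.1%. The choice of genes used these contrasts, so nothing is read from the counts.

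The tissue library, of which there was only 1, had Lif, Osmr, Il6st, Stat3 and Socs3 above the range of the fresh mDMCs, and Clcf1 and Lifr inside it. For Lif and Osmr the tissue remained far below the cultured cells, at 5 and 31. For Socs3 it was the highest library of all.

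The genes whose course across the 15 libraries was closest to that of Lif, outside the 7, were Ahnak2 (Pearson r = 0.99), Epha2 (0.988), Nfkb2 (0.987), Slco4a1 (0.986) and Aqp5 (0.985). Ahnak2 scored 5 to 14 at 0 h and 3749 to 5533 at 48 h. Epha2, an ephrin receptor kinase, scored 484 to 647 and 4338 to 5109 at these times, and Nfkb2, a subunit of NF-kappaB, 371 to 441 and 1845 to 2197. Osmr followed Lif with r = 0.971 and Socs3 ran opposite to it with r = -0.929, and for Stat3 r was 0.033. Closest to Socs3 were Dll4 (0.99), Cntn3 (0.988), Lum (0.988), Slc4a1 (0.987) and Gja4 (0.986). Of these, Dll4 and Gja4 are known from arterial endothelium, Slc4a1 from red cells, and Lum, or lumican, from the matrix of connective tissue. Lum scored 9424 to 15128 at 0 h and 647 to 904 at 48 h, and Gja4 58 to 127 at 0 h and 0 at 48 h. All these profiles share the same libraries and one large step between the 4 fresh or tissue libraries and the 11 cultured ones, so the coefficients describe that step more than any finer likeness.

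For the rest of the pathway, 69 further genes were listed by role and 57 of them had values. These lists, too, were drawn up with earlier results of these data known, so their shares and p-values are a description. Some genes named below were added after their values were seen, as the processing section lists. At 12 h, 18 of the 57 were higher than at 0 h (adjusted p below 0.05 by limma over all transcripts) and 20 were lower, shares of 31.6% and 35.1%. Among all transcripts 29.9% were higher and 28.3% lower. At 48 h, 19 were higher and 21 lower, 33.3% and 36.8%, against 37.1% and 34.0% of all. Their median log2 change at 48 h was -0.05, against 0.03 for all transcripts. From 12 h to 48 h, 14 rose and 9 fell, 24.6% and 15.8%, against 21.2% and 21.0% of all transcripts. These shares were near those of all transcripts. Cntf, Il6ra and Il31ra passed the filter on low values only through cultured libraries, and without these 3 genes 15 of 54 were higher and 20 lower at 12 h, and 16 higher and 21 lower at 48 h.

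**Figure D3:**
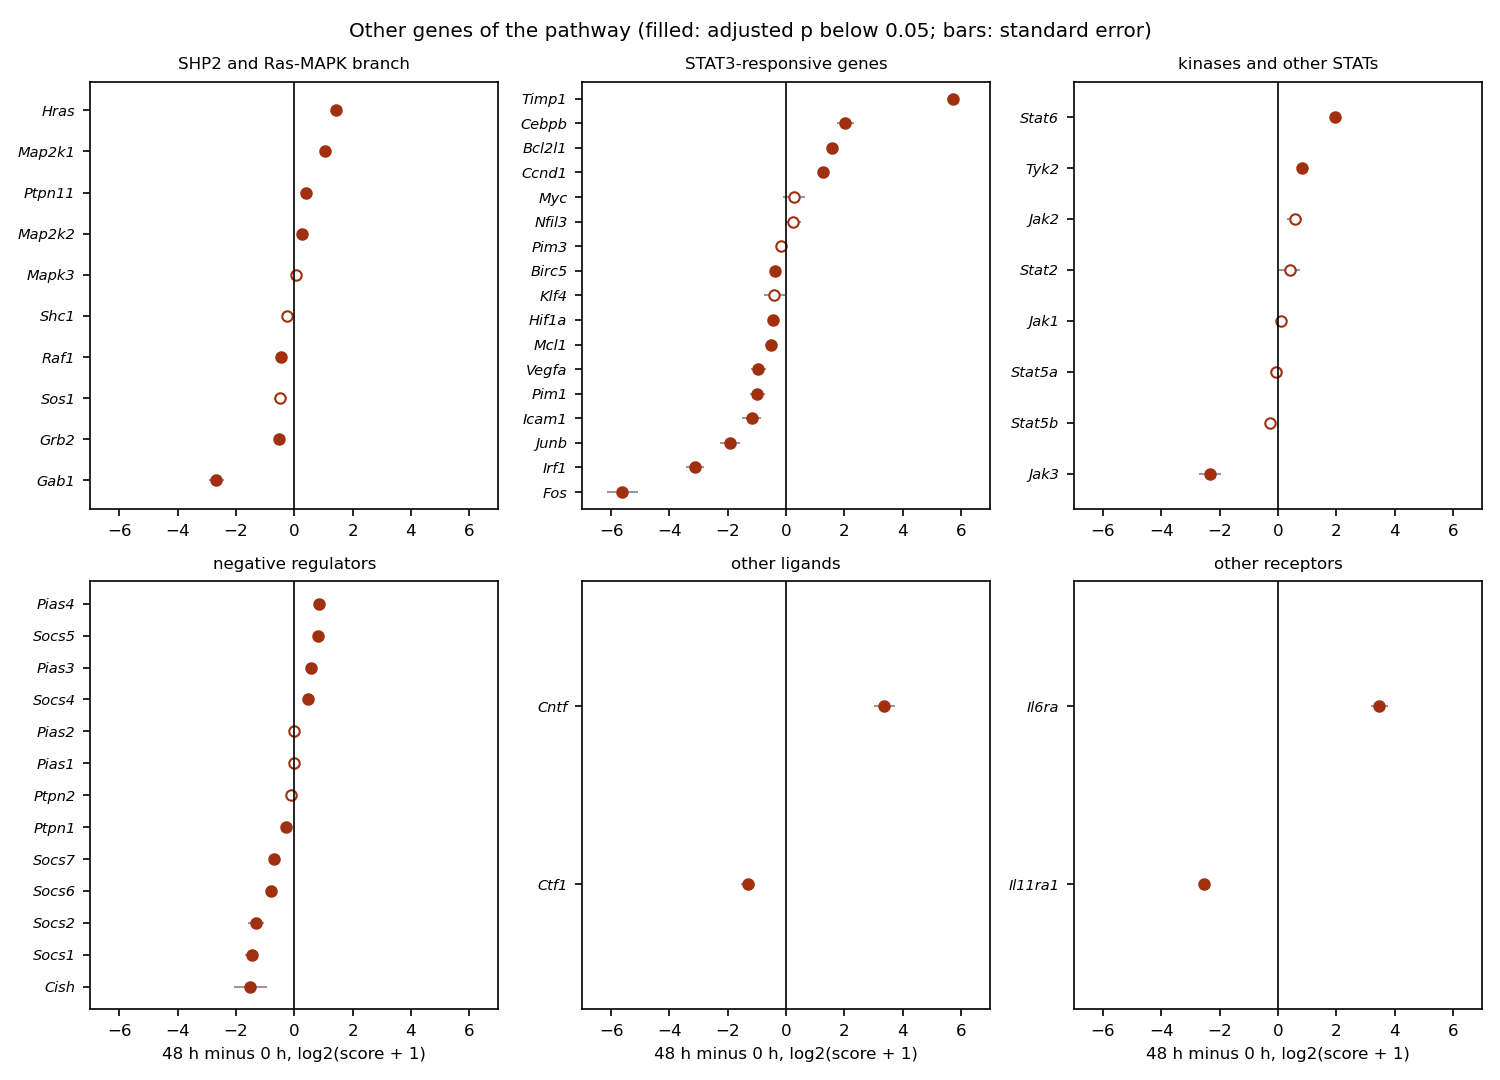
Difference between 48 h and 0 h on the log2(score + 1) scale (horizontal axis) for other pathway genes with values (vertical axis), by role; filled points have adjusted p below 0.05 and bars are standard errors. Il31ra, at 0 in every fresh library, is among the genes left out. Cntf and Il6ra entered the fit only through their cultured libraries. Timp1 lies at 5.71, Fos at -5.61 and Irf1 at -3.12. Of the JAK family kinases, Jak3 lies at -2.34, Jak1 at 0.12, Jak2 at 0.57 and Tyk2 at 0.83.

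Among the other ligands, 3 of 8 listed had values. Cntf, ciliary neurotrophic factor, scored 10, 13 and 14 at 0 h and 76, 162 and 203 at 48 h, a difference of 3.37 ± 0.36. Its fresh scores lie under the filter on low values (1 ppm of a library, a score of 21.4), so it passed only through its cultured libraries and no p is given against 0 h. Ctf1, cardiotrophin 1, scored 343, 345 and 241 at 0 h and 115, 157 and 103 at 48 h, a change of -1.31 ± 0.23 (adjusted p = 0.00026).

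Of 5 other receptor genes listed, 3 had values, and 2 of these, Il6ra and Il31ra, passed the filter only through cultured libraries and are described without a test against 0 h. Il6ra, the chain that gives cells a response to interleukin 6, scored 10, 8 and 7 at 0 h and 137, 83 and 94 at 48 h (a difference of 3.48 ± 0.28). Il11ra1, the interleukin 11 receptor, went the opposite way, from 5044, 5121 and 4314 to 946, 817 and 720 (-2.55 ± 0.11, adjusted p = 9.1e-10), and most of that fall was present at 12 h, at 970 and 1103. Il31ra, which pairs with OSMR to bind interleukin 31, was listed at 0 in all fresh libraries and the tissue. It scored 124 and 154 at 12 h, 498, 423 and 190 at 24 h, 345, 327 and 492 at 36 h, and the 48 h libraries 172, 143 and 104. No fold is given for it. Its transcript (ENSMUST00000051756, chromosome 13 at 112522795-112580662, minus strand) lies 12.7 kb from that of Il6st.

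Of the 9 kinases and other STATs with values, of 10 listed, 2 were higher and 1 lower at 48 h (22.2% and 11.1%, against 37.1% and 34.0% of all transcripts). At 12 h, 5 were higher and 2 lower (55.6% and 22.2%, against 29.9% and 28.3%). Stat6, which acts downstream of interleukins 4 and 13, scored 909, 970 and 790 at 0 h and 4314, 3325 and 2851 at 48 h (1.96 ± 0.13, adjusted p = 4.7e-08). Tyk2 rose by 0.83 ± 0.12 (adjusted p = 3e-05). Jak3, a kinase found mainly in blood cells, scored 117, 132 and 128 at 0 h and 28, 19 and 26 at 48 h (-2.34 ± 0.38, adjusted p = 0.00012). The leukocyte markers fell over the same interval, as given above, and their part in this change was not tested. Jak1 and Jak2, the kinases bound to gp130, changed by 0.12 ± 0.10 (adjusted p = 0.269) and 0.57 ± 0.26 (adjusted p = 0.0621) at 48 h, although both were higher at 12 h, by 0.41 ± 0.11 (adjusted p = 0.00656) and 1.13 ± 0.29 (adjusted p = 0.0046).

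The negative regulators did not move as one. Of 13 with values, of 14 listed, 4 were higher and 6 lower at 48 h, 30.8% and 46.2%, against 37.1% and 34.0% of all transcripts. Their median change was -0.10, against 0.03. Socs1, an inhibitor of JAK kinases, scored 195, 361 and 335 at 0 h, 158 and 172 at 12 h, then 92, 92 and 131 at 48 h (-1.46 ± 0.22, adjusted p = 6.8e-05). Socs2 fell by 1.32 ± 0.28 (adjusted p = 0.00093), from 577, 801 and 1278 to 253, 417 and 358. Socs6 and Socs7 changed by -0.81 ± 0.12 (adjusted p = 3.5e-05) and -0.68 ± 0.09 (adjusted p = 1.4e-05). Socs4 and Socs5 rose by 0.48 ± 0.08 (adjusted p = 0.00018) and 0.82 ± 0.13 (adjusted p = 0.00011). Cish, a STAT5 target, changed by -1.51 ± 0.57 (adjusted p = 0.0292), but its fresh scores of 60, 224 and 401 were widely spread and the call was lost in 4 of 15 alternatives: with the compared time points alone (adjusted p = 0.0706) and without the second fresh library (0.0889), the third (0.146) or the first 48 h library (0.11), over a range of 0.000489 to 0.146 across all alternatives. Pias4 rose by 0.86 ± 0.11 (adjusted p = 1.6e-05).

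**Figure D4:**
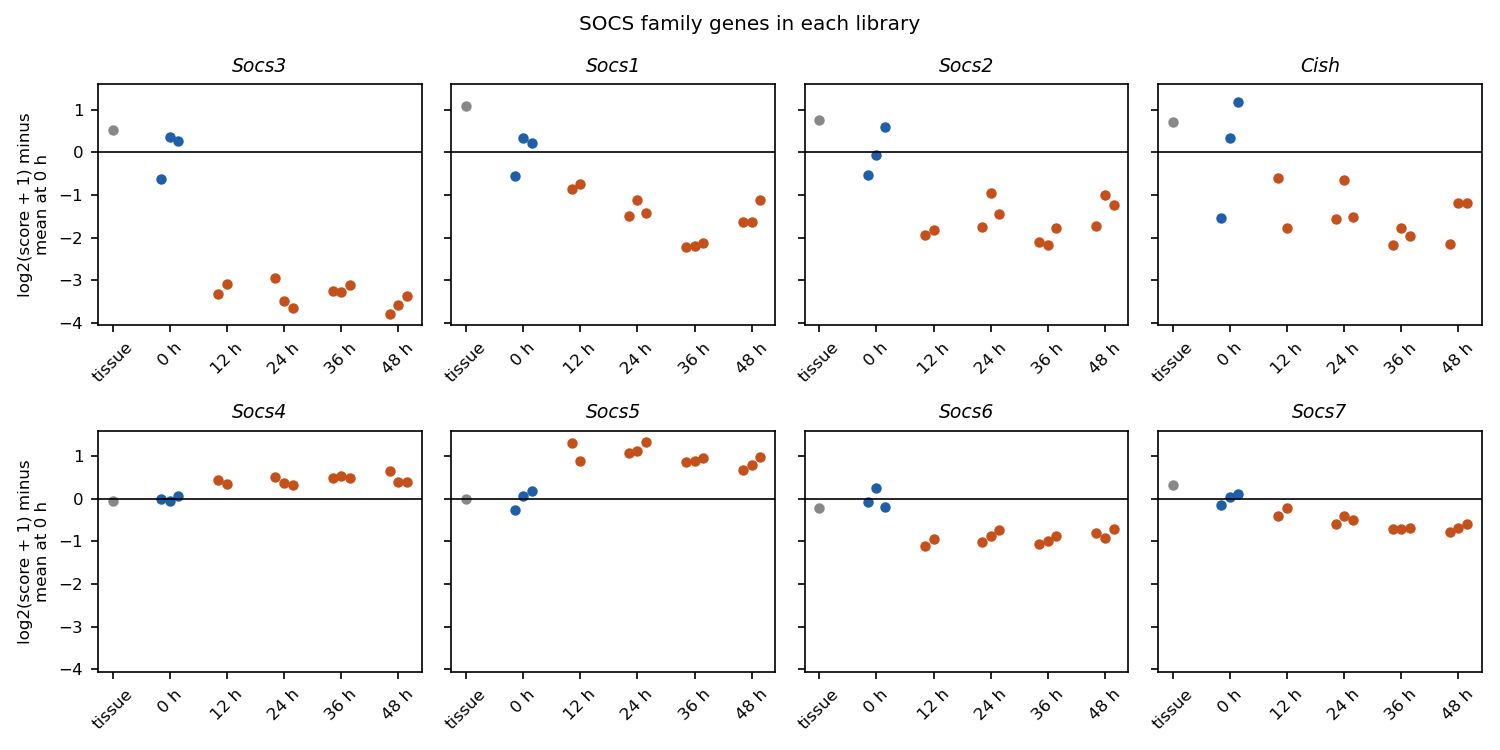
Score of Socs3 and the other SOCS family genes in each library, as log2(score + 1) minus the gene's mean at 0 h (vertical axis), in the tissue and by time (horizontal axis); points are libraries. Socs3 lies furthest below 0 in the cultured libraries, Socs1, Socs2, Socs6 and Socs7 lie less far below, and Socs4 and Socs5 lie above 0.

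The branch that runs from gp130 through the phosphatase SHP2 to the MAP kinases had all 12 listed genes, of which 6 were higher and 3 lower at 48 h, 50.0% and 25.0%, against 37.1% and 34.0% of all. Their median change was 0.17. Hras rose by 1.43 ± 0.09 (adjusted p = 2.1e-08) and Map2k1 by 1.07 ± 0.18 (adjusted p = 0.00015). Ptpn11, which encodes SHP2 itself, rose by 0.41 ± 0.09 (adjusted p = 0.00084). Gab1, the adaptor that SHP2 binds, scored 2090, 2040 and 4788 at 0 h and 472, 424 and 397 at 48 h (-2.67 ± 0.27, adjusted p = 1.4e-06).

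Among genes known to respond to STAT3, 17 of 20 listed had values, and at 48 h 4 were higher, 9 lower and 4 did not pass the test. The shares were 23.5% higher and 52.9% lower, against 37.1% and 34.0% of all transcripts, with a median change of -0.41 against 0.03. Timp1, an inhibitor of matrix metalloproteinases, scored 154, 189 and 197 at 0 h, 3945 and 4290 at 12 h, then 12916, 7867 and 8254 at 48 h (5.71 ± 0.19, adjusted p = 7.7e-11). Cebpb, a transcription factor, rose from 253, 617 and 714 to 2326, 1695 and 1935 (2.03 ± 0.29, adjusted p = 3.3e-05). Bcl2l1, an inhibitor of cell death, rose by 1.58 ± 0.18 (adjusted p = 5.3e-06), and Ccnd1, a driver of the cell cycle, by 1.28 ± 0.18 (adjusted p = 3.9e-05).

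The lower genes with the largest changes were Fos and Irf1. Fos, a partner in the AP-1 dimer, scored 16498, 40642 and 127101 at 0 h and 595, 943 and 1312 at 48 h (-5.61 ± 0.52, adjusted p = 7.4e-07). The score of 127101 is the largest value, which is the same in every library. Irf1, an interferon response factor, went from 2552, 6928 and 5713 to 612, 558 and 445 (-3.12 ± 0.31, adjusted p = 1.2e-06). Junb changed by -1.92 ± 0.34 (adjusted p = 0.00021). The tissue held 15089 for Fos, just below the fresh range, and 6487 for Irf1, inside it. Myc was higher at 12 h, at 1507 and 929 against 208, 263 and 752 at 0 h (1.77 ± 0.42, adjusted p = 0.00276), and was at 373, 367 and 545 by 48 h. Irf1 and Fos followed Socs3 across the 15 libraries with r = 0.984 and 0.951, again mostly through the single step at the start of culture. Timp1 ran opposite to Socs3 (r = -0.967). The summed endothelial, leukocyte and red cell markers were lower over the same step, and their part in these changes was not tested.

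Between 12 h and 48 h, Lif was higher by a further 2.66 ± 0.49 and Osmr by 1.01 ± 0.41, Lifr changed by -1.09 ± 0.15, and Il6st (0.27 ± 0.18), Clcf1 (0.02 ± 0.33), Stat3 (0.01 ± 0.27) and Socs3 (-0.38 ± 0.27) differed less. In the same interval Il6ra differed by a further 2.37 ± 0.31. Stat6 rose by 1.09 ± 0.15 (adjusted p = 0.00013), Timp1 by 1.20 ± 0.21 (adjusted p = 0.00071), Bcl2l1 by 1.10 ± 0.20 (adjusted p = 0.0011), Pias3 by 0.82 ± 0.11 (adjusted p = 9.5e-05) and Pias4 by 0.59 ± 0.12 (adjusted p = 0.00245). Stat5b changed by -0.89 ± 0.14 (adjusted p = 0.00038). Other calls in this interval were lost under some alternatives. Cntf (1.47 ± 0.41, adjusted p = 0.0116) was lost without the second 12 h library (0.0821) and Myc (-1.49 ± 0.42, adjusted p = 0.0125) without the first (0.129). Gab1 (-0.90 ± 0.30, adjusted p = 0.0274) was lost in 3 of 14 alternatives, without the first 12 h library (0.261), the second 48 h library (0.0582) or the third (0.0683). Sos1 (-0.68 ± 0.26, adjusted p = 0.0485) was lost in 7 of 14, among them the omission of the first 12 h library (0.55) and of each 48 h library (0.0689 to 0.122). Il11ra1 and Socs1, at adjusted p = 0.0482 and 0.0481, were lost in most single-library omissions, at up to 0.251 and 0.168. Without the first 12 h library, 3 pathway genes were lower in place of 9, and the share of all transcripts in that fit was not taken.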

How the data were processed

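RNA-seq libraries of mDMCs at 0, 12, 24, 36 and 48 h and of dental mesenchymal tissue were analysed from 1 deposited table of 12089 Ensembl transcripts by 15 libraries. The authors trimmed and aligned reads with bowtie, estimated transcript abundance with RSEM (1.1.21 in the submitters' processing notes, build mm10), normalised the libraries by a step not given in the sources used here and tested genes with DESeq2. No transcript in the table has a highest score under 13. The deposited values are whole-number scores: every library had the same median (721) and largest value (127101), and totals of 21357605 to 21365980, so they are neither raw counts nor CPM. Depth is unknown and no interval for counting error can be given. Because the scores were rescaled by the authors, a change is relative to the rest of the library.

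Transcripts were matched to gene symbols through Ensembl identifiers (11973 of 12089, 11960 genes, build GRCm38). The 7 genes, the lists and the tests were chosen with earlier results of these data known. The 14 mDMC libraries were fitted as log2(score + 1) in limma 3.58.1 under R 4.3.3, each time point having its own mean, with an intensity trend. Kept were 12079 transcripts that held 1 ppm or more of a library's total in 2 or more libraries; these included all 7 genes and all 57 others. p-values were two-sided and adjusted by Benjamini-Hochberg over all of them. The tissue, with 1 library, entered no fit. Named from each list were up to 4 called genes with the largest change at 48 h against 0 h, and those called among the 3 largest changes at 48 h against 12 h; a few genes were added after their values were seen (Il31ra, Jak1, Jak2, Socs4 to Socs7, Ptpn11, Ccnd1, Junb). The 5 nearest profiles were ranked by Pearson correlation of log2 values over 15 libraries. The fit was tested on simulated data. Alternatives were other pseudocounts (0.1 and 16), filters, thresholds, scaling, a replicate block, no trend, the compared time points alone and leaving out each library. The values of 4 listed genes are counted but not reported here. RefSeq promoters were read on GRCm38.p6.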

Additional observations from a re-analysis of the deposited data

How the results depend on the processing

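Of 17 single-gene calls that the naming rule gave for 48 h against 0 h, leaving out Cntf, Il6ra and Il31ra, which passed the filter only through cultured libraries, 16 kept their direction and their side of the threshold under every alternative run, and of 13 for 48 h against 12 h, 8 did. The study's own threshold (unadjusted p below 0.05 and over 2-fold) gave 9 other pathway genes higher and 11 lower at 12 h against 0 h. It gave 10 and 11 at 48 h against 0 h, and 7 and 1 at 48 h against 12 h. The share of all transcripts was not taken under this threshold or the other alternatives. Nothing particular to these genes is therefore read from the counts in this paragraph. Leaving out 1 library gave 3 to 9 lower genes for 48 h against 12 h, the lowest without the first 12 h library. With 1 ppm required in all 14 libraries, 0 of the 7 genes were over 2-fold higher at either time, because that filter removes Lif and Osmr, which are near 0 in fresh cells. The Lif difference was 7.07 at 12 h and 9.74 at 48 h with a pseudocount of 0.1, and 2.76 and 5.26 with 16; that of Osmr was 3.13 and 4.10 with 16. Without the first fresh library, 19 other pathway genes were higher and 23 lower at 48 h. Of 26 pairs of libraries with the same replicate number, 11 had r over 0.1 between their deviations from the group means, as did 6 of 52 pairs with other numbers. All 3 same-number pairs were over 0.1 for 24 h with 36 h and with 48 h, but 1 of 3 was for 0 h with 48 h, 1 of 2 for 0 h with 12 h and 0 of 2 for 12 h with 48 h, and no label says what a number shares, so it was not taken as pairing the comparisons made here. A replicate block gave 20 genes higher and 21 lower at 48 h against 0 h. The first 2 libraries at 36 h were the closest pair of the series (4.86% of values equal), and averaging them as 1, an alternative chosen after seeing the data, gave 6 lower genes for 48 h against 12 h.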

Other observations

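The 3 libraries of freshly isolated cells differed among themselves in the genes known to respond to STAT3. The first had the lowest score of the 3 for 13 of 17 of these genes with values, against 30.1% of all 12089 transcripts, and for 8 of 13 negative regulators and 6 of 9 kinases and other STATs. For the SHP2 and Ras-MAPK branch it was lowest for 3 of 12. Socs3, Stat3, Lifr, Il6st, Osmr and Clcf1 were also lowest there. The same library held the highest sum of epithelial markers, 13358 against 1450 and 1771. This was noticed after the values were seen, it rests on 1 library, and it was not tested.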
